A study of Homo sapiens with 8 samples.

Results

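SBO04 is 1 of 6 sample barcodes found in the first pool of a single-cell study of HMLE cells, and the 294 cells that carried it are described here beside the cells of SBO02, SBO03 and SBO06. The SBO04 cells were taken from mRNA libraries 1 and 2, which together held 12718 cells after filtering, of 26247 cell barcodes in all 4 mRNA libraries of the series. A cell was kept with at least 1000 detected genes and at most 15% of its unique molecular identifiers (UMIs) from mitochondrial genes. It was assigned to a culture when the HTODemux procedure found 1 barcode above background and that barcode was also the highest in the cell. This gave 167 and 127 SBO04 cells in libraries 1 and 2, against 260 and 190 for SBO02, 492 and 384 for SBO03, and 589 and 473 for SBO06.

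HMLE is a line of human mammary epithelial cells immortalised with telomerase and the SV40 early region, used as a model of the epithelial-to-mesenchymal transition that TGF-β induces. The study looked for stable in-between states in that transition and for effects of G-quadruplex DNA on them, using TGF-β and pyridostatin, a ligand that stabilises G-quadruplexes. The labels give the cell line but do not say which barcode received TGF-β, pyridostatin or neither, nor at what time. SBO04, SBO02, SBO03 and SBO06 are therefore named by barcode, and all 4 are HMLE cells from the same pool. Each barcode marks 1 sample. Libraries 1 and 2 both held the barcodes SBO01 to SBO06 and were taken as 2 loads of that pool, which the library titles do not state. On that reading their spread is technical. The labels do not say whether any of the barcodes are replicates of 1 condition. No statistical test was therefore possible between cultures, and each difference below is a description of these samples.

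Interferons are secreted proteins that warn neighbouring cells of infection or of nucleic acid in the wrong place. Type I interferons such as IFNB1 and type III interferons such as IFNL1 bind different receptors on epithelial cells, and both lead through receptor-bound kinases to transcription factors that include IRF9. These bind a short promoter element, and the genes they switch on are called interferon-stimulated genes. IFI27 encodes a small mitochondrial membrane protein of this program, and BST2 encodes tetherin, a surface protein that holds enveloped viruses on the cell that made them.

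The sample barcodes are the sequences that define the 4 cultures, and they are printed because an error of reading could move a cell from one culture to another. Over 15 bases, those of SBO02, SBO03 and SBO06 differ from SBO04 at 9, 8 and 12 positions, and no other barcode of the study came closer to SBO04 than 8 differences. 
SBO04: GAAGAAGCGTTATTC
SBO02: AGCGAACCGCCGCTG
SBO03: GTGCAAGAGTTGGCG
SBO06: CACTCCTTGACAGGT

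The 250 bases before the RefSeq start of IFI27 (the more upstream of its 2 listed starts, GRCh38.p14, chr14:94110486-94110735, plus strand) and of BST2 (chr19:17405631-17405880, minus strand) are printed because these genes separated SBO04 from the other cultures. Capitals mark matches to GAAANNGAAA on either strand, the core letters of the interferon-stimulated response element. IFI27 held 2 matches, which began at positions -108 and -95 from the start, and BST2 held 2 overlapping ones at -130 and -124. 
IFI27: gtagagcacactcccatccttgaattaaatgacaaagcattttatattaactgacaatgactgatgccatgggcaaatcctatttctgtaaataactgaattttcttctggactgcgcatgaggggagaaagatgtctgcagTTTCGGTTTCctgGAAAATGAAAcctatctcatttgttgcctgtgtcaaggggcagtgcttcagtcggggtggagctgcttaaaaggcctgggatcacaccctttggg
BST2: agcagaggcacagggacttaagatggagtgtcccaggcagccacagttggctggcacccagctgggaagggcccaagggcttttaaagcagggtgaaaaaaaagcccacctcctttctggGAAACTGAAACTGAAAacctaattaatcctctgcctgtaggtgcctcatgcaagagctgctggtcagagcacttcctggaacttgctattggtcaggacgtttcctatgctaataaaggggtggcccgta
Such a match occurred in 1061 of 35116 windows of the same length (3.02%) and in 220 of the 7009 expressed genes with a window (3.14%). Of the interferon-stimulated antiviral genes listed for this report, 51 had a window and 27 of them (52.9%) held a match. A match describes letters in a window and is not a measured binding site.

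The SBO04 cells were similar to the others in depth and mitochondrial share. They held 3545175 and 3793573 gene UMIs in libraries 1 and 2, against 4942063 to 14687035 per library in the other 3 cultures. The median SBO04 cell had 21238 and 29910 UMIs, against 20966.5 to 24644 in library 1 and 27447.5 to 30686 in library 2 for the other cultures. Mitochondrial genes gave 1.41 and 1.17% of the UMIs of the median SBO04 cell, against 1.27 to 1.33%. The median SBO04 cell carried 247 and 350 UMIs of its own barcode, and 37 and 32 of the highest other one. No SBO04 cell barcode occurred in both libraries, and 6 occurred in both among all cells of the 4 cultures. Another 58 cells passed as SBO04 but held more of a different barcode and were left out. Several barcodes were found in 30.3 and 23.5% of kept cells, which were left out as doublets, and pairs of cells from 1 culture remain in the data.

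The SBO04 cells matched the label of mammary epithelium. EPCAM, an epithelial adhesion molecule, stood at 315 and 315 CPM (counts scaled so that all totals are equal) in SBO04 and at 314 to 326 in the other 3 cultures. The basal keratin KRT5 stood at 563 and 529 CPM in SBO04, against 473 to 630 CPM, and CDH1, the gene of E-cadherin, at 95.3 and 92.0 CPM, against 79.4 to 101 CPM. The more abundant keratins KRT18, KRT8 and KRT7 were lowest in SBO04 in both libraries, by less than 1.5-fold. KRT18 stood at 4769 and 5024 CPM, against 5329 to 5936 CPM, and KRT7 at 4515 and 5032 CPM, against 5334 to 5933 CPM. Of 19 epithelial genes averaging at least 10 CPM, SBO04 was highest for 3 and lowest for 4 in both libraries. Among all genes these shares were 11.2 and 9.12%. PTPRC, the pan-leukocyte marker, had no UMI in SBO04. Of 10 leukocyte markers 5 had none, and the 10 together came to 23.7 and 20.3 CPM in SBO04, against 22.6 to 33.6 CPM in the other cultures. Endothelial markers summed to 2.82 and 4.48 CPM in SBO04, against 2.17 to 5.42 CPM.

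Levels in CPM were computed from the summed UMIs of a culture in 1 library, and differences are between log2(CPM + 1) values. Genes were compared where they averaged at least 10 CPM over the 8 values, which left 8627 genes; 10 CPM was 35.5 and 37.9 UMIs in SBO04. A gene was called higher or lower in SBO04 when it stood at least 1.5-fold beyond each of SBO02, SBO03 and SBO06 in both libraries.

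By that rule 2 of the 8627 genes (0.0232%) were higher in SBO04, IFI27 and BST2, and 0 (0%) were lower. IFI27 (14:94104836-94116698, plus strand, hg38) stood at 734 and 720 CPM in SBO04, at 252 and 195 CPM in SBO02, at 323 and 300 CPM in SBO03, and at 160 and 107 CPM in SBO06. The SBO04 values were the highest in each library and differed by less than the spread of any other culture. The exact 95% Poisson intervals, which cover counting error only, ran from 706 to 763 and from 694 to 748 CPM in SBO04. IFI27 was 2.33-fold above the next culture, SBO03, and 5.51-fold above SBO06. BST2 (19:17402939-17405648, minus strand) stood at 133 and 171 CPM in SBO04, at 55.8 and 35.2 CPM in SBO02, at 50.6 and 72.2 CPM in SBO03, and at 38.5 and 20.9 CPM in SBO06. No other culture overlapped SBO04 in either gene. BST2 was 2.35-fold above the next culture and 5.16-fold above SBO06. The 2 remaining cultures of the pool lay lower in IFI27, at 27.2 and 20.7 CPM in SBO01 and 44.99 and 22.8 CPM in SBO05. BST2 stood at 6.57 and 5.95 CPM in SBO01, and at 32.4 and 30.7 CPM in SBO05, between the values of SBO06. Both genes were called under all 19 alternative settings, a 2-fold threshold included. The counts depend on seeing a gene in both libraries and against all cultures: library 2 alone gave 16 higher and 12 lower genes and library 1 alone 10 and 10, and leaving out SBO02, SBO03 or SBO06 gave 5, 6 and 4 higher and 0, 8 and 1 lower genes.

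**Figure D1:**
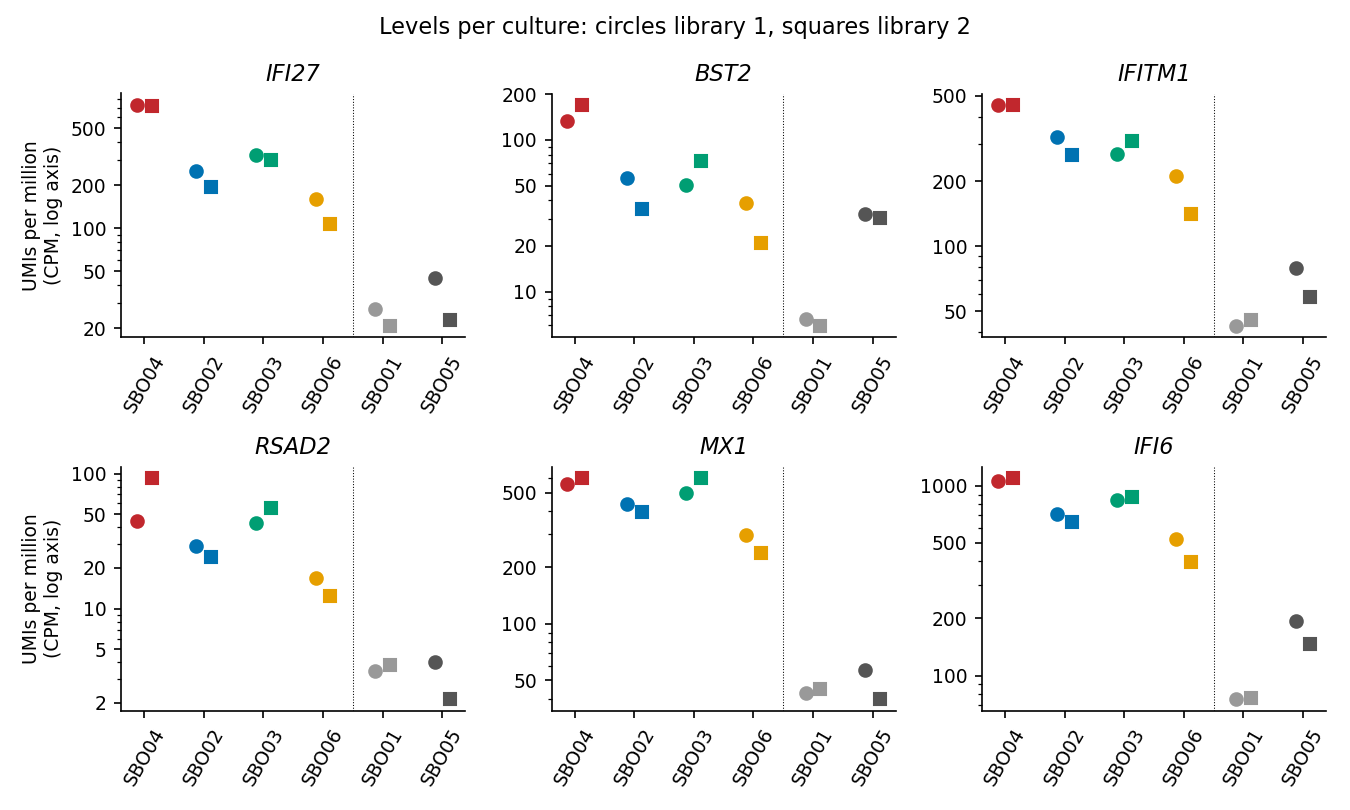
Level of 6 interferon-stimulated genes (CPM, log axis) in each culture of the pool, 1 point per library, with SBO04 leftmost and the 2 cultures outside the comparison right of the dotted line. IFI27 and BST2 stand apart in SBO04, while for MX1 SBO03 reached 502 and 600 CPM beside 559 and 597 CPM in SBO04.

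The gap to the nearest culture fell off quickly after these genes. It was 1.23 in BST2 and 1.22 in IFI27 on the log2 scale. The gene nearest to a call was SLPI, a secreted protease inhibitor of mucosal surfaces, at 307 and 310 CPM in SBO04, 215 and 184 CPM in SBO02, 171 and 178 CPM in SBO03, and 201 and 157 CPM in SBO06. Its gap was 0.63 on average but 0.52 in the closer library, below the 0.58 of a 1.5-fold difference. IFITM1, which blocks entry of viruses at the membrane, followed with 454 and 455 CPM in SBO04, 323 and 266 CPM in SBO02, 269 and 308 CPM in SBO03, and 212 and 142 CPM in SBO06. On the low side the nearest was PLAT, tissue plasminogen activator, at 40.1 and 45.9 CPM in SBO04, against 63.7 to 72.04 CPM in the other cultures. ADIRF, a small nuclear factor first described in fat cells, stood at 186 and 188 CPM in SBO04, against 268 to 414 CPM, and CDH13, a cadherin without a cytoplasmic tail, at 16.9 and 16.1 CPM, against 22.6 to 31.1 CPM. SBO04 was lowest in both libraries for all 3 of them, but none met the call in both libraries. The gap of PLAT was -0.60 on average but -0.55 in the closer library. PLAT was called lower in library 1 alone, after thinning and without highest cells. CDH13 was called lower after thinning, and CDH13 and ADIRF with SBO03 left out.

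**Figure D2:**
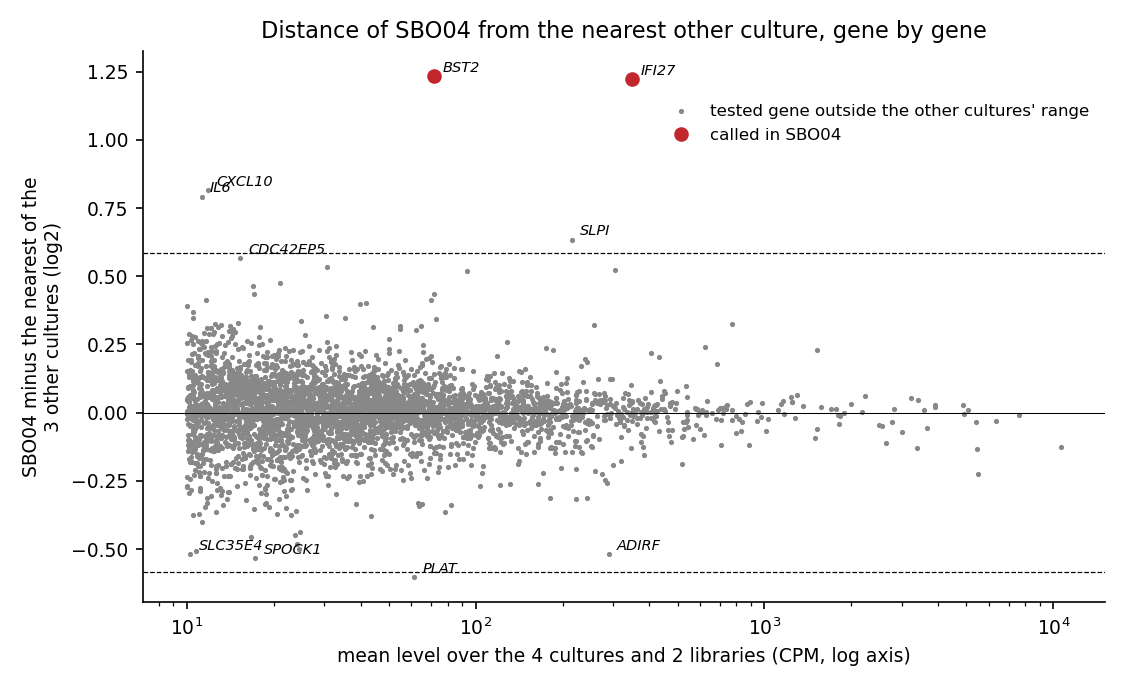
For each tested gene in which SBO04 lay outside the range of the other 3 cultures, the distance to the nearest of them (log2, mean of 2 libraries) against mean level (CPM, log axis). Dashed lines mark 1.5-fold; BST2 and IFI27 lie at 1.23 and 1.22, and CXCL10, IL6, SLPI and PLAT pass the line on average but not in both libraries.

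The difference in IFI27 lay in many SBO04 cells. Cells were thinned to 10000 UMIs, which 133 and 116 SBO04 cells reached, so that depth was equal. IFI27 was then found in 84.2 and 70.7% of SBO04 cells, in 53.5 and 48.4% of SBO02, in 62.9 and 55.2% of SBO03, and in 41.9 and 37.3% of SBO06 cells. The exact 95% binomial intervals were 76.9 to 89.95% and 61.5 to 78.8% in SBO04. Without thinning the SBO04 shares were 81.4 and 79.5%. Free RNA in a droplet run gives UMIs in cells that do not express a gene, and cells of the low cultures from the same runs, SBO01 and SBO05, gave 10.0 and 7.89%, and 15.05 and 11.2%. Their median depths before thinning were 25473 and 31093.5 UMIs, and 18822 and 23628 UMIs. The highest thinned cells held 20 and 18 IFI27 UMIs in SBO01, and 39 and 17 in SBO05. How much of the shares of SBO01 and SBO05 is free RNA was not tested. The median SBO04 cell held 5 and 3 IFI27 UMIs per 10000, against 1 and 0 in SBO02, 1 and 1 in SBO03, and 0 and 0 in SBO06. Cells with 17 or more made up 12.8 and 14.7% of SBO04, against 3.26 and 2.48% of SBO02, 3.09 and 2.16% of SBO03, and 1.14 and 0.475% of SBO06. The single highest cell held 100 of 2603 IFI27 UMIs in library 1 and 112 of 2733 in library 2. Without it the SBO04 level was 706 and 691 CPM.

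BST2 was sparser per cell. It was found in 45.9 and 43.1% of thinned SBO04 cells, in 30.2 and 22.4% of SBO02, in 28.7 and 33.3% of SBO03, and in 19.7 and 16.9% of SBO06 cells. SBO05 reached 18.3 and 21.6% and SBO01 3.58 and 3.73%, so the SBO06 share was not above that of every culture low in this program. Across SBO04 cells the Spearman correlation of IFI27 with BST2 was 0.54 in library 1 (n = 133) and 0.46 in library 2 (n = 116), and of IFI27 with the summed other interferon-stimulated genes 0.59 and 0.66. IFI27 and the summed other genes gave 0.62 and 0.48 in SBO02, 0.49 and 0.59 in SBO03, and 0.55 and 0.49 in SBO06. These points share a library and a fixed depth, and are given as a description of cells, not of conditions.

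**Figure D3:**
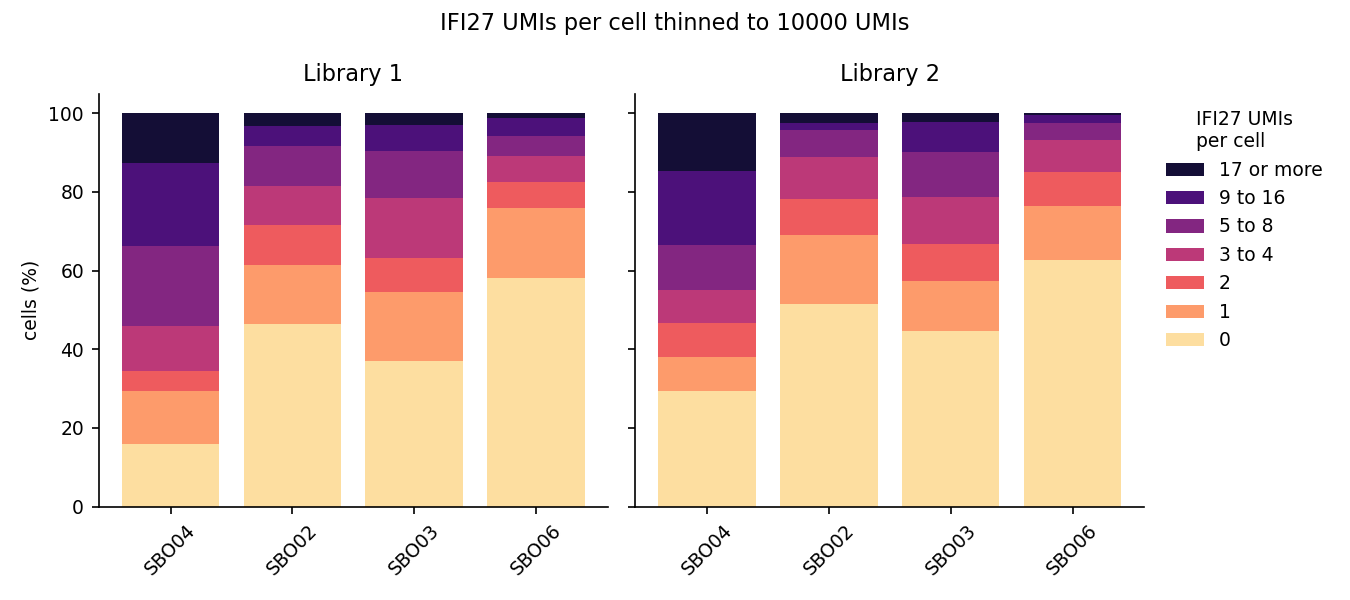
Share of cells (%) by their number of IFI27 UMIs after thinning to 10000 UMIs, by culture and library. In SBO04 15.8 and 29.3% of cells held none, against 37.1 to 62.7% in the other cultures, and the class of 17 or more took 12.8 and 14.7%, against at most 3.26%.

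The wider interferon program was graded rather than set apart. The list of antiviral effectors held 62 interferon-stimulated genes, of which 61 were compared. SBO04 was the highest culture in both libraries for 18 of the 61 and the lowest for 0, where SBO04 was highest for 969 (11.2%) and lowest for 787 (9.12%) of all genes. The 18 were IFI27, BST2, IFI6, IFITM1, IFITM3, IFI44, IFI44L, IFI35, MX2, RSAD2, CMPK2, OAS1, XAF1, EPSTI1, ISG20, UBE2L6, LY6E and CMTR1. The median difference of the list from the mean of the other 3 cultures was 0.16 on the log2 scale, against 0.01 over all genes. Summed over the list, SBO04 held 10810 and 11610 CPM, SBO02 9351 and 8787 CPM, SBO03 9444 and 10406 CPM, and SBO06 7399 and 6556 CPM. SBO04 was highest within each library. The median thinned cell held 96 and 93.5 UMIs of the list in SBO04, 74 and 72 in SBO02, 82 and 82 in SBO03, and 56 and 55 in SBO06. Leaving out IFI27 and BST2, the medians were 89 and 90.5 in SBO04, 73 and 72 in SBO02, 80 and 79 in SBO03, and 55 and 55 in SBO06. SBO01 and SBO05 lay lower, at 25 and 26 and at 30 and 29 UMIs of the whole list. The median difference of the list was 0.24 in library 2 alone, 0.26 without SBO03 and 0.04 without SBO06.

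Set against each culture by itself, SBO04 was nearest to SBO03 in this list and farthest from SBO06. These comparisons share the SBO04 libraries, and they were added after the data had been seen. Against SBO06, 45 of 8627 genes (0.522%) were higher in SBO04, 14 of them from the list, whose median difference was 0.45 with 58 of 61 members above 0 in both libraries. Against SBO02, 13 genes (0.151%) were higher, 4 of them from the list, with a median of 0.06 and 27 members above 0. Against SBO03, 7 genes (0.0811%) were higher, 2 of them from the list, with a median of -0.00 and 23 members above 0. All genes had medians of 0.02, -0.00 and 0.01 in these comparisons, and 3068, 2568 and 2515 of the 8627 were above 0 in both libraries. With 1 library in place of both, the counts of higher genes against SBO06, SBO02 and SBO03 were 129 to 132, 69 to 78 and 41 to 62.

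RSAD2, or viperin, which makes a chain-terminating nucleotide, had the widest gap to SBO06 among the listed genes after IFI27 and BST2, with 44.8 and 92.5 CPM in SBO04, 29.1 and 24.3 CPM in SBO02, 42.9 and 55.3 CPM in SBO03, and 16.95 and 12.4 CPM in SBO06. SBO04 and SBO03 were close in library 1, and 1 SBO04 cell held 75 of the 351 UMIs in library 2. Its call against SBO02 was lost when each gene's highest cell was left out of each culture. MX2, a dynamin-like protein that blocks retroviruses, stood at 31.9 and 46.9 CPM in SBO04, 22.2 and 17.6 CPM in SBO02, 27.2 and 34.1 CPM in SBO03, and 12.7 and 7.12 CPM in SBO06. CMPK2, a mitochondrial nucleotide kinase whose gene overlaps the start of RSAD2 on the other strand, stood at 42.6 and 60.9 CPM in SBO04, 38.6 and 31.6 CPM in SBO02, 36.1 and 41.0 CPM in SBO03, and 16.6 and 15.2 CPM in SBO06; whether the counting used strand is not given in the sources used here. IFI44L stood at 77.9 and 85.9 CPM in SBO04, 48.4 and 41.7 CPM in SBO02, 62.2 and 68.7 CPM in SBO03, and 32.3 and 22.7 CPM in SBO06. IFI6, another mitochondrial interferon-stimulated protein, stood at 1057 and 1099 CPM in SBO04, 710 and 644 CPM in SBO02, 842 and 877 CPM in SBO03, and 527 and 399 CPM in SBO06. In these genes SBO04 was highest and SBO06 lowest within each library. MX1, which traps viral nucleoprotein, reached 559 and 597 CPM in SBO04 and 502 and 600 CPM in SBO03, against 438 and 395 CPM in SBO02 and 298 and 240 CPM in SBO06. The other listed genes called against SBO06 were IFITM1, XAF1, OAS1, USP18, SAMD9L and IFI44, with differences of 0.75 for IFI44 and 1.39 for IFITM1.

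**Figure D4:**
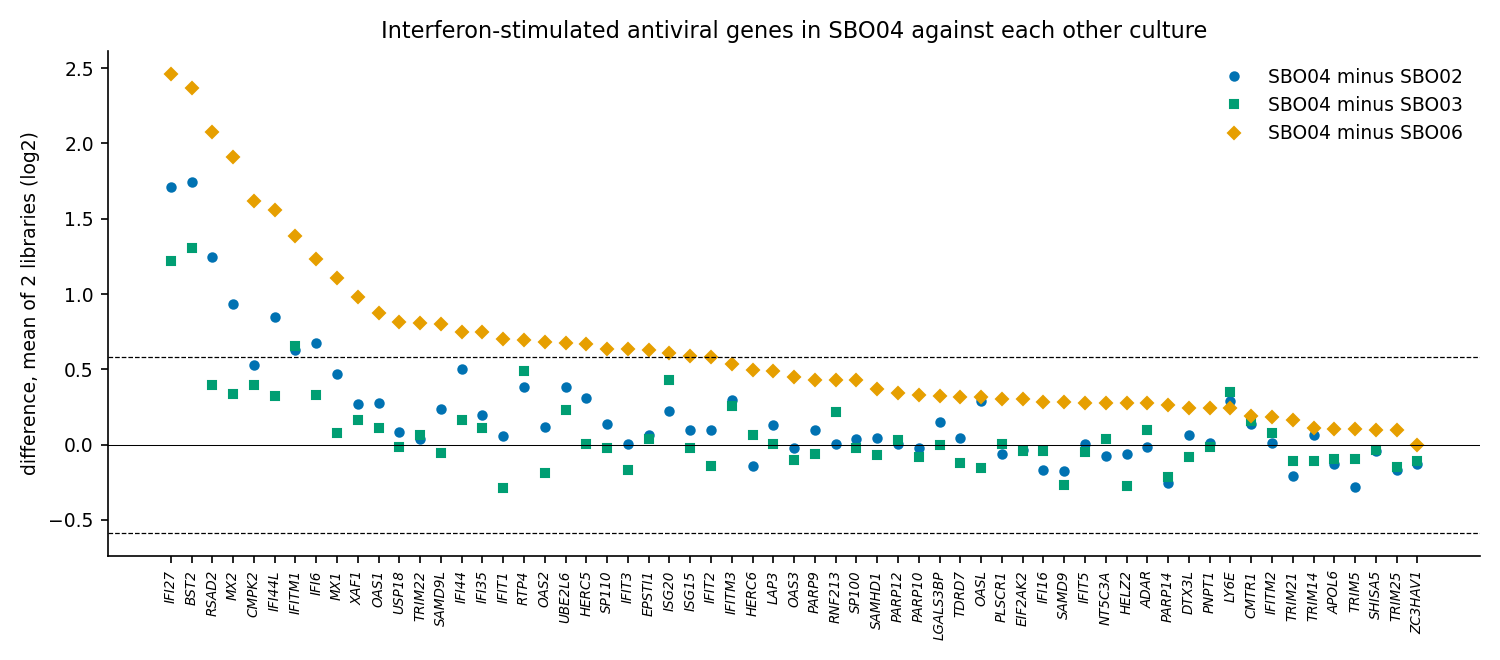
Difference of SBO04 from SBO02, SBO03 and SBO06 (log2, mean of 2 libraries) for the 61 interferon-stimulated genes compared, ordered by the difference from SBO06, with dashed lines at 1.5-fold. SBO06 points lie above 0 for nearly all genes with a median of 0.45, while SBO02 and SBO03 points lie around 0 beyond the first genes.

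The genes upstream of this program did not separate SBO04 from all 3 cultures. Of 11 interferon transcription factors 9 were compared and 0 were called against any culture. Against SBO06 their median difference was 0.28 with 7 above 0 in both libraries, where all genes had 0.02 and 3068 of 8627. Against SBO02 and SBO03 their medians were -0.11 and -0.05, with 2 and 0 above 0. IRF9 stood at 93.7 and 96.7 CPM in SBO04, against 74.3 to 106 CPM, and IRF7, which amplifies type I interferon production, at 103 and 118 CPM, against 77.0 to 129 CPM. Of 9 receptor chains and kinases 7 were compared and 0 were called. IFNAR1, a chain of the type I receptor, stood at 50.5 and 43.5 CPM in SBO04, against 41.5 to 50.6 CPM, and IFNLR1, the private chain of the type III receptor, at 6.77 and 8.96 CPM, against 6.33 to 10.3 CPM. Of 12 nucleic acid sensors 8 were compared and 0 were called; IFIH1, the cytosolic sensor of long double-stranded RNA, stood at 64.0 and 75.7 CPM in SBO04, 71.1 and 74.7 CPM in SBO02, 63.4 and 79.3 CPM in SBO03, and 48.1 and 46.8 CPM in SBO06.

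Transcripts of the interferons themselves were found in few cells. At least 1 UMI of an interferon gene was seen in 3 of 167 and 4 of 127 SBO04 cells (1.80 and 3.15%), in 2.69 and 3.68% of SBO02, 3.86 and 2.60% of SBO03, and 3.06 and 2.11% of SBO06 cells, and in 1.92 and 3.29% of SBO01 and 0.731 and 1.17% of SBO05. IFNL1 had 16 UMIs in 2 SBO04 cells of library 1 and 66 UMIs in 3 cells of library 2, against 8 and 0 UMIs in SBO02, 46 and 4 in SBO03, and 29 and 4 in SBO06. SBO04 had the smallest totals, and these counts came to 4.51 and 17.4 CPM in SBO04. The other cultures had 1.44 and 0 CPM in SBO02, 4.02 and 0.377 CPM in SBO03, and 1.97 and 0.282 CPM in SBO06. In SBO04 1 cell held 10 of the 16 UMIs in library 1 and 49 of the 66 in library 2. IFNB1 had 0 and 48 UMIs in SBO04 (0 and 12.7 CPM), 0 in SBO02 and SBO06, and 62 and 0 in SBO03 (5.41 and 0 CPM). A single SBO04 cell of library 2 held 38 IFNB1, 49 IFNL1, 22 IFNL2 and 13 IFNL3 UMIs together with 98 IFI27 and 15 BST2 UMIs, among 47180 in all. A second held 10 IFNB1 and 12 IFNL1 UMIs but 4 IFI27 UMIs. IFNL2 and IFNL3 are nearly identical copies, so their reads may be exchanged. No UMI of IFNA1, IFNA2 or IFNG was found in SBO04, which allows up to 0.846 and 0.791 CPM. With every cell that held an interferon UMI left out, 3 and 4 of them in SBO04, IFI27 and BST2 were still called in SBO04. Interferons are secreted, so leaving these cells out cannot show whether they acted on the others, which was not tested.

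CXCL10, a chemokine that draws T cells, followed the same pattern of few cells. It stood at 20.6 and 24.0 CPM in SBO04, 16.8 and 7.49 CPM in SBO02, 6.46 and 8.77 CPM in SBO03, and 4.90 and 6.14 CPM in SBO06, but 1 cell held 45 of the 73 SBO04 UMIs in library 1 and 71 of the 91 in library 2. Without the highest cell of each culture CXCL10 stood at 7.90 and 5.27 CPM in SBO04, 11.9 and 2.23 CPM in SBO02, 4.89 and 5.47 CPM in SBO03, and 3.20 and 3.24 CPM in SBO06. The call against SBO03 was then lost, and SBO02 lay above SBO04 in library 1. The call against SBO06 was kept only with totals rescaled to the UMIs left. At the levels printed here, which use the full totals, library 2 fell short of 1.5-fold. These levels also average below the 10 CPM needed for a comparison. IL6, an inflammatory cytokine, stood at 12.4 and 27.9 CPM in SBO04, 7.40 and 6.27 CPM in SBO02, 10.6 and 10.2 CPM in SBO03, and 8.10 and 7.40 CPM in SBO06. In SBO04 1 cell held 6 of the 44 IL6 UMIs in library 1 and 42 of the 106 in library 2. Without the highest cell of each culture IL6 stood at 10.7 and 16.9 CPM in SBO04, 5.96 and 5.06 CPM in SBO02, 9.17 and 8.59 CPM in SBO03, and 7.56 and 6.49 CPM in SBO06. IL6 was called against SBO02 with and without its highest cells. Its levels without them average below 10 CPM, so that call was kept only because the filter of all cells was used.

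Antigen presentation was close to level against the mean of the other 3 cultures, but not against each of them. Of 20 class I genes 19 were compared, 0 were called against all 3 cultures, and the median difference from that mean was 0.04. Against SBO02, SBO03 and SBO06 the medians were -0.11, 0.04 and 0.15, with 1, 9 and 13 of the 19 above 0 in both libraries. All genes had medians of -0.00, 0.01 and 0.02, with 2568, 2515 and 3068 of 8627 above 0. HLA-B, a class I heavy chain, was called against SBO06, with 893 and 821 CPM in SBO04, 754 and 760 CPM in SBO02, 624 and 712 CPM in SBO03, and 475 and 443 CPM in SBO06. B2M, the shared light chain, stood at 2855 and 2766 CPM in SBO04, 3008 and 2790 CPM in SBO02, 2852 and 2603 CPM in SBO03, and 2339 and 2184 CPM in SBO06. The class II master regulator CIITA had under 1 CPM in each culture.

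Some genes of squamous differentiation, the program by which stratified epithelia build a cornified surface, were lower in SBO04 than in SBO02 and SBO06. Of 35 listed genes 19 were compared, and 5 were lower in SBO04 than in SBO02, 3 lower than in SBO06 and 0 lower than in SBO03, with medians of -0.42, -0.20 and 0.02. Among all genes 33 (0.383%) were lower than in SBO02, 14 (0.162%) lower than in SBO06 and 8 (0.0927%) lower than in SBO03. KLK10, a kallikrein protease of shed skin, stood at 124 and 144 CPM in SBO04, 303 and 350 CPM in SBO02, 136 and 144 CPM in SBO03, and 317 and 292 CPM in SBO06. SBO04 and SBO03 did not differ beyond the spread of their libraries, and both lay below the other cultures. SERPINB2, a protease inhibitor of stressed epithelium, likewise placed SBO04 nearer to SBO03, with 42.0 and 42.7 CPM in SBO04, 159 and 79.7 CPM in SBO02, 33.1 and 37.8 CPM in SBO03, and 82.2 and 80.9 CPM in SBO06. SPRR1B, which is crosslinked into the cornified envelope, stood at 5.36 and 4.48 CPM in SBO04, 9.93 and 21.0 CPM in SBO02, 6.29 and 2.17 CPM in SBO03, and 30.1 and 10.2 CPM in SBO06. S100A7, or psoriasin, stood at 7.90 and 0.527 CPM in SBO04, 20.04 and 1.82 CPM in SBO02, 1.40 and 3.59 CPM in SBO03, and 89.4 and 19.5 CPM in SBO06. In SBO04 1 cell held 13 of 28 S100A7 UMIs in library 1 and 1 of 2 in library 2, and in SBO06 1 cell held 1188 of 1313 and 209 of 277. Without the highest cell of each culture S100A7 stood at 4.23 and 0.264 CPM in SBO04, 11.7 and 1.42 CPM in SBO02, 0.786 and 1.79 CPM in SBO03, and 8.51 and 4.795 CPM in SBO06. The calls against SBO02 and SBO06 were kept only because the filter of all cells was used. These levels average below the 10 CPM needed for a comparison.

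Against SBO02 by itself, 28 of the 33 lower genes and 10 of the 13 higher ones were also called without their highest cells. CDKN1A, the p53 target that arrests the cycle, stood at 166 and 254 CPM in SBO04, 372 and 440 CPM in SBO02, 239 and 227 CPM in SBO03, and 196 and 219 CPM in SBO06. ITGA2, a collagen receptor chain, stood at 26.5 and 31.4 CPM in SBO04, against 66.4 and 63.3 CPM in SBO02, and IL32, a proinflammatory cytokine, at 87.2 and 78.8 CPM, against 157 and 176 CPM. The higher genes other than IFI27, BST2, IFI44L and IL6 included JUN, a subunit of AP-1, at 311 and 354 CPM in SBO04 against 199 and 209 CPM in SBO02, and the linker histone HIST1H1A at 83.5 and 96.0 CPM against 48.2 and 55.8 CPM.

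Against SBO03, all 8 lower genes and 4 of the 7 higher ones kept their call without the highest cells. The lower ones included TAGLN, the smooth muscle protein transgelin, which binds actin and is raised by TGF-β, at 66.6 and 53.5 CPM in SBO04, 108 and 120 CPM in SBO02, 107 and 153 CPM in SBO03, and 66.0 and 49.998 CPM in SBO06. SBO04 and SBO06 overlapped in TAGLN, as did SBO02 and SBO03. The collagen gene COL1A1 stood at 12.1 and 19.0 CPM in SBO04, against 23.8 and 31.2 CPM in SBO03, and IGFBP7, a secreted binding protein, at 125 and 105 CPM, against 192 and 191 CPM. The 30 mesenchymal genes summed to 3354 and 3562 CPM in SBO04, 4092 and 4111 CPM in SBO02, 4200 and 4926 CPM in SBO03, and 2536 and 2615 CPM in SBO06, with 12 compared, 2 called lower against SBO03 and 1 against SBO02. FN1, the gene of fibronectin, stood at 2296 and 2338 CPM in SBO04, 2985 and 3007 CPM in SBO02, 2872 and 3436 CPM in SBO03, and 1565 and 1701 CPM in SBO06. SBO04 thus lay between SBO06 and the other pair in FN1, and also in the sum, of which FN1 was the larger part in each culture. The sum is therefore not a separate observation. Over the 12 genes compared the median difference was -0.04 against SBO02, -0.38 against SBO03 and 0.15 against SBO06. Of the higher genes, CXCL10, the chemokine CXCL1 and the protease inhibitor PI3 lost their call without the highest cells. Those that kept it were IFI27, BST2, SLPI and CA9, a carbonic anhydrase of hypoxic cells, which stood at 18.6 and 15.03 CPM in SBO04, against 10.8 and 7.93 CPM in SBO03.

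Against SBO06, 39 of the 45 higher genes and all 14 lower ones kept their call without the highest cells. Outside the interferon list the higher ones included ITGA4, an integrin chain, at 18.6 and 25.3 CPM in SBO04 against 8.85 and 9.59 CPM in SBO06, and GABRP, a GABA receptor subunit, at 24.3 and 38.8 CPM against 14.7 and 14.2 CPM. The lower ones included FST, follistatin, the inhibitor of activin, at 10.2 and 11.9 CPM in SBO04, 22.9 and 18.8 CPM in SBO02, 13.3 and 13.3 CPM in SBO03, and 38.9 and 39.4 CPM in SBO06. IL1B, the gene of interleukin-1β, stood at 13.8 and 10.8 CPM in SBO04, 20.4 and 22.7 CPM in SBO02, 24.7 and 14.3 CPM in SBO03, and 36.3 and 46.3 CPM in SBO06. FOSL1, an AP-1 subunit, stood at 46.3 and 46.1 CPM in SBO04, against 79.7 and 82.4 CPM in SBO06.

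**Figure D5:**
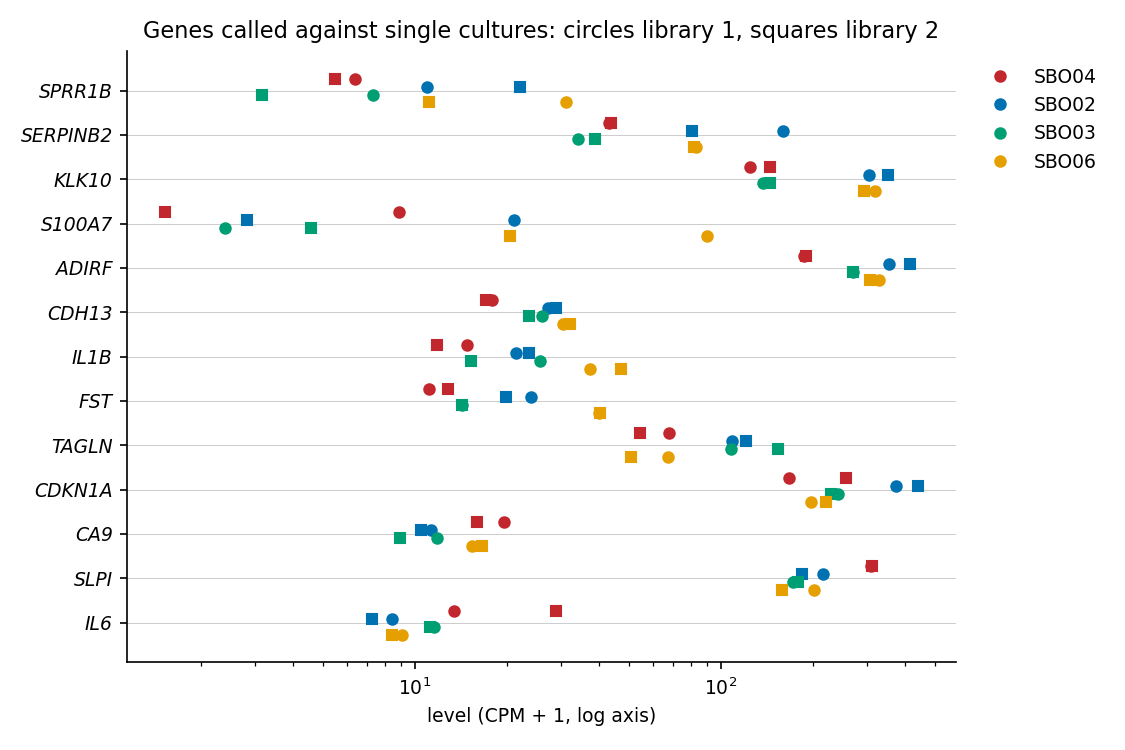
Levels (CPM + 1, log axis) of 13 genes called in at least 1 comparison of SBO04 with a single culture or near a call, 1 point per culture and library, with SBO04 uppermost within each gene. KLK10 and SERPINB2 place SBO04 beside SBO03 and below SBO02 and SBO06, and TAGLN places SBO04 beside SBO06.

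Genes of the cell cycle and of respiration gave no call. All 20 S phase, 22 G2/M, 24 nuclear oxidative phosphorylation and 13 mitochondrial genome genes were compared with 0 calls against any culture and medians between 0.00 and 0.04. Of the 24 listed proteins that bind or unwind G-quadruplexes 23 were compared, with 0 calls and a median of 0.04. EGF family ligands and receptors had a median of -0.30 with 4 of 8 lowest in SBO04 in both libraries, where 787 of all 8627 genes (9.12%) were lowest. None of the 8 was called. One of the 4 was TGFA, transforming growth factor α, at 17.8 and 20.8 CPM in SBO04, 26.9 and 26.7 CPM in SBO02, 21.6 and 23.8 CPM in SBO03, and 23.7 and 21.9 CPM in SBO06. Of 20 immediate early and heat shock genes 8 were highest in SBO04 in both libraries, where 969 of all genes (11.2%) were highest. The 20 had a median of 0.13, with JUN as the sole call, against SBO02. Of 17 basal genes 5 were lowest, with a median of -0.13. All genes had a median of 0.01.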

How the data were processed

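The deposited values are raw UMI counts, 1 matrix per mRNA library made by the authors, with 36601 genes and 12 sample barcodes; per the submitters' processing notes the build was hg38 and the tools were Seurat 4.1.0, Cell Ranger 6.0.2 and bcl2fastq 2.20.0.422. Filters before deposit are not given in these sources. Libraries 1 and 2 were demultiplexed each alone with HTODemux of Seurat 5.3.0 (centred log ratios of SBO01 to SBO06, positive quantile 0.99). Counts were summed per culture and library and scaled to CPM with a pseudocount of 1 CPM. The call rule was run on simulated counts with counting error only. They lacked the concentration of UMIs in single cells seen here, so that run does not cover such genes. Gene positions come from the GENCODE annotation of GRCh38 and promoter windows from RefSeq.

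The cultures, gene lists and rules were chosen with earlier results of these data known. Named were IFI27, BST2, called genes with the largest differences (at most 12 per direction), and of each list the called members and the 2 of highest level. Against single cultures, only genes called without their highest cell were named by size, a rule added after seeing the data; genes nearest to a call and those in a few cells were chosen after their values were seen. Thinning used 10000 UMIs per cell. Calls against single cultures without highest cells used totals of the UMIs left and the 10 CPM filter of all cells. Levels printed without highest cells kept the full totals. Intervals cover counting error only. Other doublet callers were not run. The values of 1 gene are not reported here.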

Additional observations from a re-analysis of the deposited data

Results flagged for a closer look

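The matrices of libraries 1 and 2 also list the 6 barcodes of the other pool, which no comparison used. SBO07 to SBO12 together had 31 UMIs in library 1 and 22 UMIs in library 2, against 10749924 and 6875450 UMIs of SBO01 to SBO06. Both sums lie above 3 counts, the upper limit that an observed count of 0 would leave. Where these UMIs came from was not tested, and none of them entered an assignment of SBO04 cells.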

How the results depend on the processing

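Precision is limited by 1 sample per culture and by 294 cells, in which 10 CPM is under 40 UMIs. IFI27 and BST2 were called under all 19 alternatives. Of 2736 recomputed gene values, 2371 moved by less than the spread between libraries, 364 by more and 1 reversed: CSF2 against SBO03 was 0.31 with cells that held more of another barcode kept. No paired analysis was possible because the design fits no model that a replicate block could enter; every difference is already taken within a library. Both single-cell leave-outs and all comparisons with 1 culture were chosen after seeing the data. Except where an alternative by its construction removes genes, cells, a culture or a library, the cause was not tested.

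Genes higher than all 3 cultures (2) numbered 10 to 16 with 1 library, 14 without a filter, 5 thinned, and 5, 6 and 4 without SBO02, SBO03 and SBO06. Genes lower (0) numbered 10 to 12 with 1 library, 11 without a filter, 1 (S100A7) under the top barcode rule, 6 thinned, 8 without SBO03, 1 without SBO06, 2 without highest cells and 1 without interferon cells. The interferon list's median (0.16) was 0.13 to 0.24 with 1 library, 0.26 without SBO03 and 0.038 without SBO06. The class I median (0.04) ranged from 0.022 to 0.051 with 1 library, and was 0.018 under the top barcode rule, 0.024 with all singlets, 0.0083 thinned, 0.12 without SBO02 and -0.039 without SBO06.

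Counts against 1 culture are given with no filter, at a mean of 50 CPM, at 2-fold and thinned, in that order. Against SBO02, higher genes (13) numbered 137, 5, 4 and 39, 7 with a pseudocount of 10 CPM and 69 to 78 with 1 library. Lower ones (33) numbered 178, 13, 1 and 66, 15 with that pseudocount, 20 with all singlets and 121 to 162 with 1 library. Against SBO03, higher genes (7) numbered 61, 3, 4 and 24, 11 under the top barcode rule and 41 to 62 with 1 library. Lower ones (8) numbered 103, 2, 1 and 35, 2 with that pseudocount, 5 under the top barcode rule, 14 without highest cells and 59 to 65 with 1 library. Against SBO06, higher genes (45) numbered 169, 18, 9 and 72, 20 with that pseudocount and 129 to 132 with 1 library. Lower ones (14) numbered 72, 6, 5 and 32, 8 with that pseudocount, 23 without highest cells and 43 to 72 with 1 library. Interferon-stimulated UMIs per SBO04 cell (94.8) were 90 under the top barcode rule, 89.3 unthinned, 91.5 with all singlets and 92.3 at a stricter quantile.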

Other observations

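The cells that passed as SBO04 while another barcode was higher numbered 39 in library 1 and 19 in library 2. SBO03 was the highest barcode in 20 and 13 of them, SBO06 in 10 and 2, and SBO05 in 9 and 4. They carried a median of 52 and 60 UMIs of SBO04, against 247 and 350 in the SBO04 cells described above. IFI27 stood at 587 and 200 CPM in them, against 734 and 720 CPM in the SBO04 cells. BST2 stood at 110 and 15.7 CPM, against 133 and 171 CPM, and the 62 interferon-stimulated genes summed to 9288 and 6811 CPM, against 10810 and 11610 CPM. In library 1 these cells lay nearer to SBO04 in both genes than to SBO02, SBO03 or SBO06. In library 2 they lay nearer to SBO02 and SBO06 in both genes than to SBO04, so the libraries differed. What mixture of cultures they hold was not tested.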
